A study of Mus musculus with 8 samples.

Results

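The heat shock chaperones described here are 10 genes, Hspa1a, Hspa1b, Hsph1, Dnajb1, Hsp90aa1, Hspd1, Hspe1, Hspa8, Hspb1 and Bag3, out of 49585 genes counted in 8 mouse livers. They were chosen by a measured value, the higher level of Hspa1b in livers with p53R245W, so their values in comparisons with those livers are given as a description, with no test. The filter on low counts left 16496 genes. Of the members, 9 reached its minimum in all 8 livers, whereas Hspa1a passed through LP245/+ replicates 2 and 3 alone, where it is high. Counts and medians of fold changes over the list are therefore given without Hspa1a. Correlations between members and the members' average include it. RNA of whole livers of males was sequenced after 3 months of HFCD, a high-fat diet without added choline that was started at 21 days of age. All 8 livers came from mice on this diet, and no liver of a mouse on normal chow is part of the comparisons. The 3 LP245/+ livers carried the Alb-Cre transgene and 1 Trp53wm-R245W allele, which Cre switches to the missense mutant p53R245W, beside a wild-type allele. The 2 LPfl/+ livers carried Alb-Cre and 1 floxed Trp53 allele, which Cre deletes, beside a wild-type allele. The 3 LP+/+ livers served as controls. By their labels these lack Cre and hold an unrecombined allele, floxed in replicates 1 and 2 and R245W in replicate 3. The study's text describes LP+/+ also as Alb-Cre carriers. By the labels, Cre and the Trp53 lesion cannot be told apart in comparisons with LP+/+. The albumin promoter drives Cre in hepatocytes and the bile duct cells that share their origin, so other cells of these livers kept their alleles.

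Heat shock proteins hold unfolded proteins, fold them or hand them on for degradation. HSP70 proteins bind short stretches of a client, J-domain proteins such as DNAJB1 deliver the client and stimulate the ATPase of HSP70, and nucleotide exchange factors such as HSPH1 and BAG3 release it. Under heat or proteotoxic stress the transcription factor HSF1 forms trimers, binds heat shock elements (arrays of the unit nGAAn in alternating orientation) and induces the inducible HSP70 genes, while Hspa8, HSP90 and the mitochondrial pair HSP60 and HSP10 are abundant in unstressed cells.

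The study's libraries hold between 26304526 and 31370714 counts per liver. A floor of 3 counts was used for detection, which covers counting error only. Alb, the hepatocyte albumin gene, reached between 75603 and 116788 CPM (counts scaled to library size by TMM), whereas markers of lymphocytes, bile duct and muscle summed to at most 2.76, 7.25 and 10.7 CPM in any liver. The numbers in the livers' labels fall into a run with the LP245/+ livers and LP+/+ replicates 2 and 3. After a gap, another run holds LP+/+ replicate 1 and both LPfl/+ livers. These runs are called library series here. They were inferred from the gap in numbers alone, because batches are not given in the sources used here. Whether the runs were prepared or sequenced apart is not known. LP245/+ and LPfl/+ livers do not occur in the same series, so series and genotype cannot be told apart from these livers alone. Values of that comparison with the series as a covariate rest on LP+/+, the only genotype in both series. There LP+/+ replicate 1 alone stands for the second series. Reads from the mitochondrial genome made up between 5.88% and 9.70% of the counts. Cdkn1a, a p53 target, had between 144 and 195 counts in LP+/+ livers, 74 and 99 in LPfl/+ livers and 14 to 27 in LP245/+ livers. Trp53 had between 215 and 269, 125 and 176, and 190 to 306 counts.

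The stretches with paired heat shock units are shown first, because arrays of such units are what HSF1 is known to bind in general and because Hspa1a and Hspa1b share theirs. The 250 bases before each RefSeq start site (GRCm38.p6) were searched on both strands for the head-to-head pair GAANNTTC and the tail-to-tail pair TTCNNGAA, in which N is any base. Both motifs read the same on either strand, and 2 overlapping pairs form a triple. RefSeq promoters were found for 8 members, Hsp90aa1 and Hspa8 being without an entry. Capitals mark the paired units, and each stretch is written 5′ to 3′ on the strand of its gene.

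Hspa1a, chr17:34972247-34972266, minus strand, outside annotated genes: ctgctgGAAGATTCctggcc
Hspa1b, chr17:34959329-34959348, minus strand, outside annotated genes: ctgctgGAAGATTCctggcc
Hsph1, chr5:149636356-149636375, minus strand, first exon of Hsph1: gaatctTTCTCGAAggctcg
Hspe1, chr1:55088053-55088082, plus strand, in an exon of Hspd1: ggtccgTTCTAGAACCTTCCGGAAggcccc
Hspd1, the same positions, minus strand: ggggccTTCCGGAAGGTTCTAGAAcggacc
Hspb1, chr5:135887796-135887835, plus strand, outside annotated genes: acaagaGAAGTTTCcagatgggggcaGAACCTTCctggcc

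A pair was present before the start of 6 of the 8 members, Hspa1a, Hspa1b, Hsph1, Hspd1, Hspe1 and Hspb1, against 14.5% of 27025 genes with a promoter entry. Per promoter, 12.8% of 32851 held a pair. The stretches of Hspa1a and Hspa1b were identical and began 110 bases before each start. Hspd1 and Hspe1, which lie head to head, share 1 stretch with a triple (for Hspd1 before the second of its RefSeq starts), an array found for 0.514% of genes. No pair of these letters was found for Dnajb1 and Bag3. For these genes, unlike the other members with an entry, the first bases after each RefSeq start were not found in an annotated transcript (GENCODE M21). The stretch searched is therefore less certain for them. Of the other chaperone genes, a pair was present for 4 of 10 J-domain genes with an entry, 3 of 16 genes of HSP90 beta and co-chaperones, 2 of 4 small heat shock genes and 2 of 7 chaperonin subunits. Among the 13 genes of the endoplasmic reticulum, 8 of mitochondria, 7 of the HSP70 family and 2 heat shock factor genes with an entry, 0 had a pair. These are matches of letters, and no binding was measured.

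**Figure D1:**
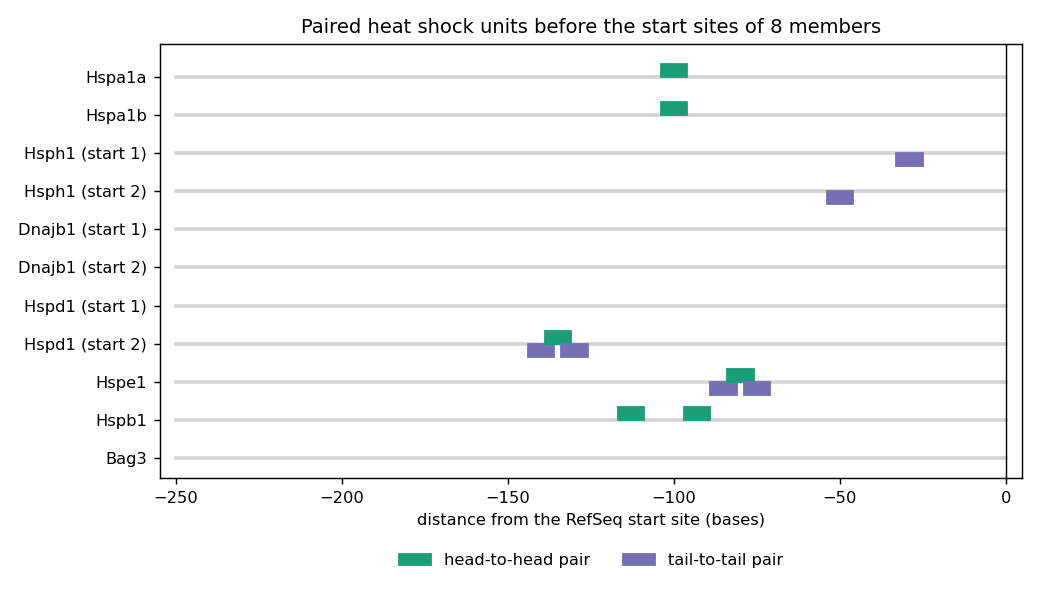
Position of paired heat shock units in the 250 bases before the RefSeq start sites of the 8 members with an entry. The x axis is the distance from the start in bases, each grey line is 1 searched stretch, upper boxes are head-to-head pairs and lower boxes tail-to-tail pairs. Hspa1a and Hspa1b have a pair at the same distance, Hspe1 and the second start of Hspd1 an array of overlapping pairs, and Dnajb1 and Bag3 none.

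Reads from near-identical copies limit what some of these counts say. The coding sequences of Hspa1a and Hspa1b, neighbours on chromosome 17, were 99.4% identical, with 8 differing bases, and encode proteins with 0 differing residues and 1 gap. After the stop codon they were 47.3% identical. Of the 76-base windows of a transcript, the length of the reads, 55.6% for Hspa1b and 54.0% for Hspa1a also occur in another gene's transcript. How reads that match several genes were counted is not given in the sources used here, so the counts of Hspa1a and Hspa1b, each and in their ratio, are uncertain. Shared windows made up 67.7% for Hspa8, 52.9% for Hsp90aa1, 47.1% for Hspb1, 33.3% for Hspd1 and 23.5% for Hspe1, mostly with processed copies. For Hsph1, Dnajb1 and Bag3 the share was 0%.

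Levels were compared between genes per length, as TMM-scaled CPM per kilobase of exon (GENCODE M21). The length was not corrected for windows shared with other genes, so levels of genes with such windows are less certain. In LP+/+ livers Hspa8, the constitutive HSP70 of the cytosol, stood at 168 ± 58.6 (SD, n = 3) and Hspd1, the mitochondrial HSP60, at 119 ± 4.50 (SD, n = 3), and their livers overlapped. Hsp90aa1, the inducible HSP90 of the cytosol, at 39.9 ± 4.31 (SD, n = 3) and Hspe1, the HSP10 partner of HSP60, at 35.8 ± 8.08 (SD, n = 3) came next and overlapped each other but not Hspd1. Hspb1 at 7.92, Bag3 at 7.24, Dnajb1 at 7.07 and Hsph1 at 6.85 overlapped with each of their neighbours in this order. With the longest transcript as the length in place of all exons, Hspe1 at 54.8 stood above Hsp90aa1 at 47.8, and Hsph1 at 10.5 above Hspb1 at 8.78, Dnajb1 at 7.56 and Bag3 at 7.24. Hspa1b stood at 0.817 ± 0.246 (SD, n = 3), below all of these livers, and Hspa1a at 0.0525 ± 0.0359 (SD, n = 3). The inducible HSP70 genes were at the bottom of the list in livers of the control genotype with either length.

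Hspa1b, the inducible HSP70 gene for which the list was made (chromosome 17 of GRCm38, from 34956436 to 34959238), was highest in every LP245/+ liver. Its values were 1.49, 2.66 and 2.71 CPM in LP+/+ livers, 1.40 and 0.964 in LPfl/+ livers and 5.69, 6.10 and 4.58 in LP245/+ livers, from 44, 79 and 82, 39 and 27, and 155, 170 and 128 counts. The LP245/+ livers lay above all others, and both LPfl/+ livers lay below all LP+/+ livers, with LPfl/+ replicate 1 close to LP+/+ replicate 1. LP245/+ livers averaged 5.46 ± 0.788 (SD, n = 3), compared with 2.29 ± 0.689 (SD, n = 3) for LP+/+ and 1.18 ± 0.306 (SD, n = 2) for LPfl/+ livers. Described by edgeR's fit, LP245/+ was 2.38-fold higher than LP+/+ (log2 fold change 1.25, standard error, SE, 0.26) and 4.61-fold higher than LPfl/+ (log2 fold change 2.21, SE 0.32). Against the LP+/+ livers of the same library series the log2 ratio was 1.02, and with the series as a covariate the log2 fold change against LPfl/+ was 1.36. In bulk RNA, fewer cells of a type and less RNA per cell cannot be told apart.

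Hspa1a (chromosome 17, from 34969190 to 34972156), its near-identical neighbour, had few counts. These were 1, 6 and 7 in LP+/+ livers, 4 and 4 in LPfl/+ livers and 8, 10 and 11 in LP245/+ livers, 51 in all, so no fold is given. The LP245/+ livers lay above the others by 1 count or more. Hspa1a passed the filter through LP245/+ replicates 2 and 3 alone, so nothing is read from this order. Summed over both genes there were 45, 85 and 89 counts in LP+/+ livers, 43 and 31 in LPfl/+ livers and 163, 180 and 139 in LP245/+ livers. Hspa1a made up between 2.22% and 12.9% of these sums.

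Dnajb1, the J-domain partner of inducible HSP70 (chromosome 8, from 83608193 to 83612653), ordered the genotypes in the same way. Its values were 20.5, 25.0 and 22.3 CPM in LP+/+ livers, 17.4 and 16.2 in LPfl/+ livers and 29.7, 25.4 and 36.3 in LP245/+ livers. No liver of a genotype overlapped with another genotype, though LP245/+ replicate 2 lay just above LP+/+ replicate 2. The log2 fold change of LP245/+ was 0.43 against LP+/+ (SE 0.14), or 0.27 without LP245/+ replicate 3, and 0.86 against LPfl/+ (SE 0.16).

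Hsph1, the HSP110 exchange factor (chromosome 5, from 149614287 to 149636376), had 53.0, 54.4 and 42.1 CPM in LP+/+ livers, 28.6 and 43.7 in LPfl/+ livers and 63.0, 59.6 and 55.4 in LP245/+ livers. The LP245/+ livers lay above all others, while LPfl/+ replicate 2 lay among the LP+/+ livers. The log2 fold change of LP245/+ was 0.25 against LP+/+ (SE 0.16), or 0.14 without LP+/+ replicate 3. Against LPfl/+ it was 0.72 (SE 0.18), or 0.44 without LPfl/+ replicate 1. Bag3, which links HSP70 to small heat shock proteins and autophagy (chromosome 7, from 128523616 to 128546981), had 15.1, 23.7 and 16.7 CPM in LP+/+ livers, 11.1 and 12.0 in LPfl/+ livers and 28.0, 27.6 and 18.0 in LP245/+ livers. LP245/+ replicates 1 and 2 lay above all other livers and replicate 3 lay among the LP+/+ livers, whereas both LPfl/+ livers were the lowest. The log2 fold change of LP245/+ was 0.41 against LP+/+ (SE 0.20), or 0.61 without LP+/+ replicate 2. Against LPfl/+ it was 1.09 (SE 0.23), or 0.67 with the library series as a covariate.

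Hspa8, the constitutive HSP70 (chromosome 9, from 40800984 to 40810087), spread most within a genotype among the members with abundant reads. Its values were 450.1, 947 and 769 CPM in LP+/+ livers, 211 and 624 in LPfl/+ livers and 840.5, 834 and 1067 in LP245/+ livers. The LP245/+ livers overlapped with LP+/+, and the ratio of the highest to the lowest liver was 2.10 within LP+/+, 2.96 within LPfl/+ and 1.28 within LP245/+. The log2 fold change of LP245/+ was 0.34 against LP+/+ (SE 0.37), 0.09 within the library series and between 0.092 and 0.57 with a liver left out, these being without LP+/+ replicate 1 and without LP+/+ replicate 2. Against LPfl/+ it was 1.13 (SE 0.43). That value was 0.55 without LPfl/+ replicate 1, the lowest liver, 2.12 without LPfl/+ replicate 2 and 0.20 with the library series as a covariate.

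Hsp90aa1 (chromosome 12, from 110690605 to 110702728) had 159.6, 172 and 138 CPM in LP+/+ livers, 132 and 192 in LPfl/+ livers and 130.5, 138 and 182 in LP245/+ livers, and all genotypes overlapped. Hspd1 (chromosome 1, from 55077835 to 55088243) had 307, 329 and 309.8 in LP+/+ livers, 293 and 299 in LPfl/+ livers and 247, 277 and 352 in LP245/+ livers. Its partner Hspe1 (chromosome 1, from 55088132 to 55091307) had 62.5, 56.4 and 39.5 in LP+/+ livers, 63.6 and 58.7 in LPfl/+ livers and 45.8, 54.3 and 77.4 in LP245/+ livers. For these 3 genes the fitted log2 fold changes of LP245/+ against LP+/+ were -0.06, -0.11 and 0.16, none larger than its SE (0.17, 0.14 and 0.21). LP245/+ replicate 3 was the highest of the LP245/+ livers for all of them. Hspb1, the small heat shock protein HSP25 (chromosome 5, from 135887919 to 135889563), had 8.08, 7.28 and 9.13 in LP+/+ livers, 8.34 and 9.46 in LPfl/+ livers and 6.10, 7.76 and 6.76 in LP245/+ livers, the opposite order of Hspa1b. Its log2 fold change in LP245/+ was -0.25 against LP+/+ (SE 0.15), with overlapping livers, and -0.37 against LPfl/+ (SE 0.16), without overlap.

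**Figure D2:**
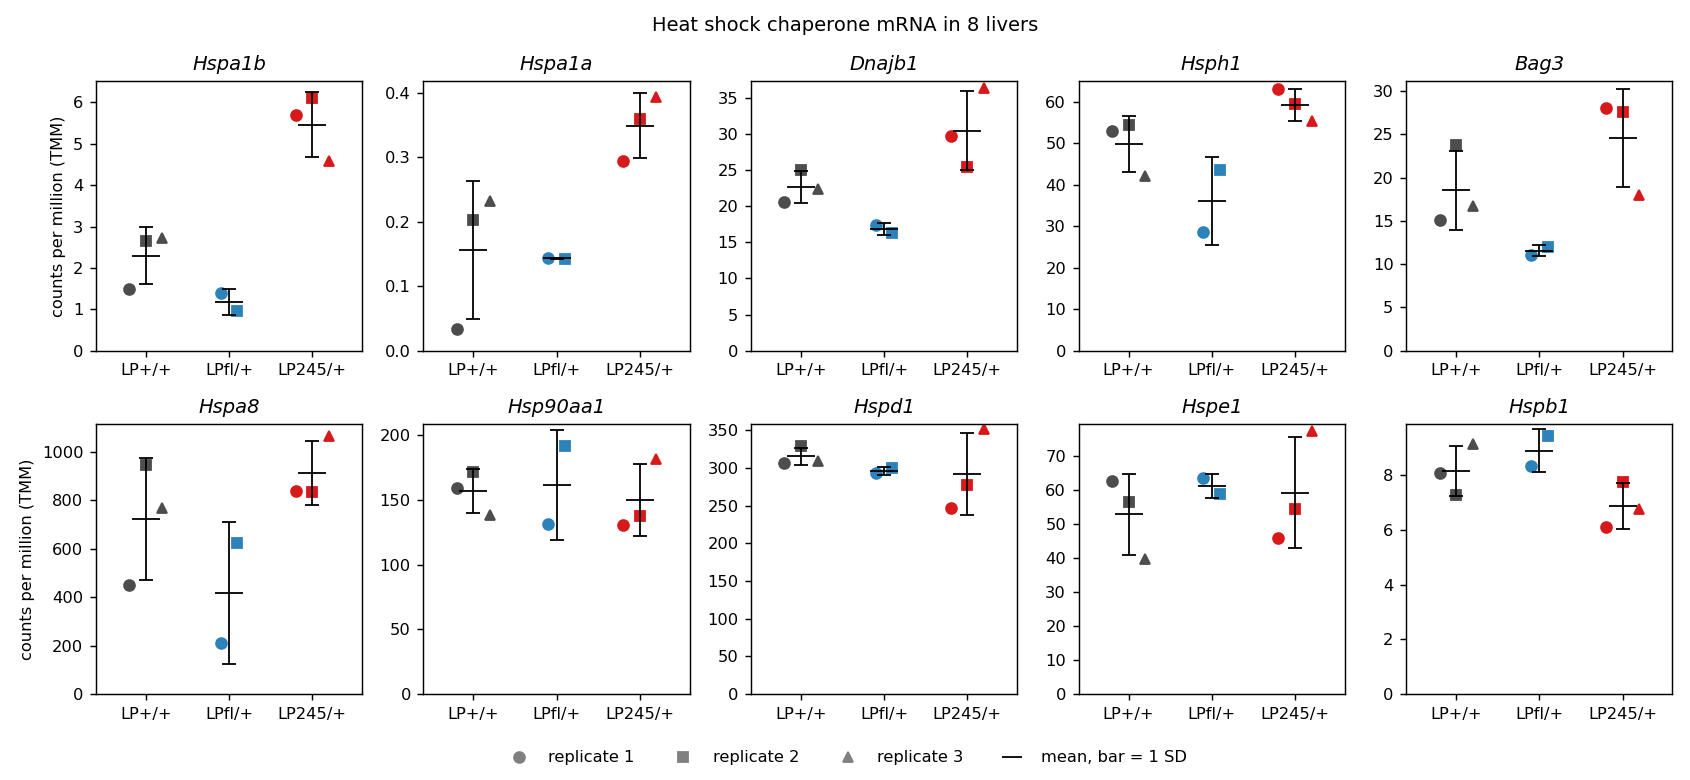
TMM-scaled CPM (y axis, from 0) of the 10 members in each liver by genotype. Points are livers with the replicate number as symbol, and the horizontal mark and bar are the mean and 1 SD (n = 3, 2 and 3). Hspa1b, Dnajb1 and Hsph1 lie higher in every LP245/+ liver than in every other liver, whereas Hsp90aa1, Hspd1 and Hspe1 overlap in LP245/+ and LP+/+. Hspa1a also lies higher in the LP245/+ livers, but it passed the filter through LP245/+ livers alone.

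Without Hspa1a, 6 of 9 members had a positive fitted log2 fold change in LP245/+ against LP+/+, with a median of 0.25, beside a median of 0.00 over all genes tested. The LP245/+ livers lay above all LP+/+ livers for 3 of these 9, Hspa1b, Hsph1 and Dnajb1, and below for 0, where 6.47% and 5.08% of all genes did so. Against LPfl/+, 5 of the 9 lay above and 1, Hspb1, below without overlap, where 12.1% and 13.3% of all genes did so, and the median log2 fold change was 0.72. These comparisons chose the list, and nothing is read from the counts. Of the 16496 genes, 0 were called higher and 1 lower (0.00606%) at the cutoff, a log2 fold change of 1 or more in either direction with an adjusted p not above 0.05, in LP245/+ against LP+/+.

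Loss of 1 Trp53 allele without a mutant protein was tested in LPfl/+ against LP+/+, a comparison that did not choose the list but shares the LP+/+ livers with the one that did. In this comparison 6 of the 9 members were on the lower side, with a median log2 fold change of -0.43. The median over all genes tested was -0.001. Of 82 other chaperone and heat shock genes that passed the filter, 58 were on the lower side too, with a median of -0.05. Being on the lower side was thus not particular to the members. At the cutoff 0 members were called by edgeR's quasi-likelihood test, and 0 of all genes. DESeq2 called 0 members and 9 of all genes. At an unadjusted p under 0.05, 4 members were lower in LPfl/+ (Hspa1b, Bag3, Dnajb1 and Hsph1) and 0 higher, where 2.67% and 4.22% of all genes were. None of the 4 passed the Benjamini-Hochberg adjustment over 16496 genes, with an adjusted p of 0.697 for the first 3 and 0.704 for Hsph1 from edgeR. The LPfl/+ livers lay below all LP+/+ livers for 4 members, Hspa1b, Dnajb1, Bag3 and Hspd1, and above for 0, where 12.4% and 12.6% of all genes did so.

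Among the members that act with inducible HSP70, Hspa1b had a log2 fold change of -0.95 in LPfl/+ (SE 0.32, unadjusted p = 0.0134 from edgeR), which is 0.516 of the LP+/+ level. Bag3 had -0.68 (SE 0.23, unadjusted p = 0.0155 from edgeR), Hsph1 -0.46 (SE 0.18, unadjusted p = 0.0280) and Dnajb1 -0.43 (SE 0.16, unadjusted p = 0.0210). These differences were smaller within a library series for 3 of the 4 genes. Against LP+/+ replicate 1, the only control of the same series, the log2 ratios were -0.34 for Hspa1b, -0.39 for Bag3 and -0.29 for Dnajb1, against -0.55 for Hsph1. With the series as a covariate 1 of the 4, Hsph1, kept an unadjusted p under 0.05. The number was 2 without LP+/+ replicate 2 and 2 without LPfl/+ replicate 1. Without LPfl/+ replicate 1 Hsph1 had a log2 fold change of -0.20 (unadjusted p = 0.265 from edgeR), and without LPfl/+ replicate 2 Hspa1b had -0.73 (unadjusted p = 0.0975).

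The abundant chaperones gave no call in LPfl/+ at either threshold. Hspa8 had a log2 fold change of -0.79 (SE 0.42, adjusted p = 0.757 from edgeR), which was -0.22 without LPfl/+ replicate 1 and -1.79 without LPfl/+ replicate 2. In these fits the remaining LPfl/+ liver is taken to vary like the other genotypes. At -1.79 the unadjusted p from edgeR was 0.00142, so whether Hspa8 differed depended on which LPfl/+ liver was used. Within the series its log2 ratio was -0.11. Hsp90aa1 (0.05, SE 0.20), Hspd1 (-0.09, SE 0.15), Hspe1 (0.21, SE 0.23) and Hspb1 (0.12, SE 0.16) differed from LP+/+ by less than their SE. For Hsp90aa1 the sign was the opposite without LPfl/+ replicate 2 (-0.26).

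**Figure D3:**
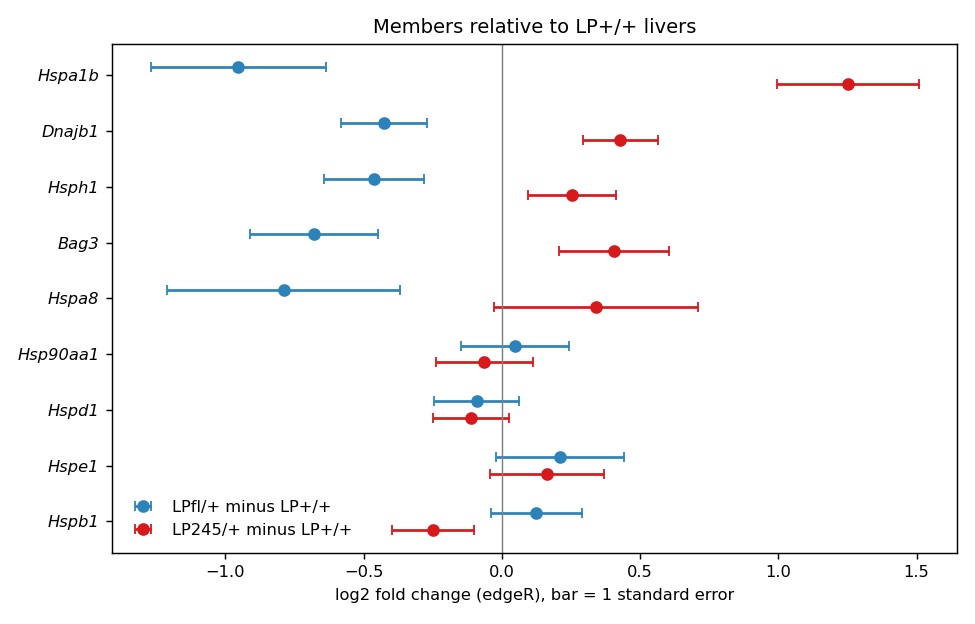
Fitted log2 fold change (x axis, edgeR) of 9 members in LPfl/+ (blue) and LP245/+ (red) against the same LP+/+ livers, with bars of 1 standard error. Hspa1a is left out for its low counts. Hspa1b, Dnajb1, Hsph1, Bag3 and Hspa8 lie on opposite sides of 0 in the 2 genotypes, and the shared LP+/+ livers enter both values.

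The other genes of the heat shock and chaperone network were 85 listed genes, of which 82 passed the filter. In LP245/+ against LP+/+, 1 of them was higher and 1 lower at an unadjusted p under 0.05 from edgeR, where 3.55% and 2.38% of all genes were. In LPfl/+ against LP+/+ 1 was higher and 1 lower, and in LP245/+ against LPfl/+ 4 were higher and 1 lower, where 4.07% and 4.44% of all genes were. At the cutoff 0 were called in each comparison, and the smallest adjusted p was 0.376. The number lower in LPfl/+ than in LP+/+ was 7 without LP+/+ replicate 1, where the number over all genes rose as well, from 441 to 781. This number and the number higher in LP245/+ than in LPfl/+ also depended on which LPfl/+ liver was used. The median log2 fold changes of the 82 genes were -0.01, -0.05 and 0.03 in the 3 comparisons, beside 0.25, -0.43 and 0.72 for the 9 members. The 0.25 and 0.72 are from the comparisons that chose the members, and nothing is read from them.

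Of the transcription factors of the response, Hsf1 and Hsf2 gave no call. Hsf1, the master regulator, had a log2 fold change of -0.01 in LP245/+ (SE 0.14) and -0.17 in LPfl/+ (SE 0.16) against LP+/+, with between 8.55 and 11.4 CPM in all livers. Hsf2 had 0.09 (SE 0.14) and -0.18 (SE 0.15). Hsbp1l1, a gene similar to the HSF-binding protein gene Hsbp1, was higher in LPfl/+ by 1.39 (SE 0.40, adjusted p = 0.697 from edgeR) at between 0.695 and 3.53 CPM.

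Among the partners of HSP90, Chordc1, a co-chaperone induced by heat, had 48.1, 59.7 and 48.7 CPM in LP+/+ livers, 39.9 and 44.5 in LPfl/+ livers and 53.8, 51.8 and 68.3 in LP245/+ livers. It was higher in LP245/+ than in LPfl/+ by a log2 fold change of 0.46 (SE 0.15, unadjusted p = 0.0125, adjusted p = 0.457 from edgeR), without overlap. Hsp90ab1, the constitutive HSP90, Stip1, which joins HSP70 to HSP90, and Ahsa1, which activates the HSP90 ATPase, had log2 fold changes of -0.09, -0.00 and -0.12 in LP245/+ and of -0.14, -0.15 and -0.14 in LPfl/+ against LP+/+, with SEs between 0.12 and 0.15. Tomm34, a co-chaperone of mitochondrial import, was lower in LPfl/+ than in LP+/+ by 0.39 on the log2 scale (log2 fold change -0.39, SE 0.13, adjusted p = 0.697 from edgeR).

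Of the J-domain genes, Dnajb4 was higher in LP245/+ than in LPfl/+ by a log2 fold change of 0.42 (SE 0.15, adjusted p = 0.498 from edgeR), and Dnaja1, an HSP40 of the cytosol, had 0.30 (SE 0.16, adjusted p = 0.643). Of the other HSP70 genes, Hspa4, an HSP110 paralogue of Hsph1, had -0.07 in LP245/+ and -0.09 in LPfl/+ against LP+/+, and Hspa9, the mitochondrial HSP70, -0.06 and -0.14. Among the small heat shock genes, Hspb8, the partner of BAG3, was higher in LP245/+ than in LPfl/+ by 0.44 (SE 0.18, unadjusted p = 0.0371, adjusted p = 0.551 from edgeR). Cryab, at between 2.04 and 3.34 CPM, lay below all LP+/+ livers in both LP245/+ (log2 fold change -0.36, SE 0.18) and LPfl/+ (-0.40, SE 0.20), neither of which passed an unadjusted p of 0.05.

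In the organelles, Dnajb9, a J-domain protein of the endoplasmic reticulum that the unfolded protein response induces, had 35.2, 78.6 and 48.2 CPM in LP+/+ livers, 27.9 and 52.6 in LPfl/+ livers and 94.2, 88.0 and 98.9 in LP245/+ livers. The LP245/+ livers lay above all others, with a log2 fold change of 0.79 against LP+/+ (SE 0.29, unadjusted p = 0.0205, adjusted p = 0.795 from edgeR). The abundant chaperones of that compartment gave no call. Hspa5, which encodes BiP, and Hsp90b1, which encodes GRP94, had 0.08 and 0.07 in LP245/+, and Serpinh1, the collagen chaperone, 0.08. Hspa5 differed between the LPfl/+ livers, with 739 CPM in replicate 1, which was also the lowest liver for Hspa8, and 1630.3 in replicate 2. In mitochondria, Clpx, the unfoldase of the ClpXP protease, was lower in LP245/+ by -0.55 against LP+/+ (SE 0.18, unadjusted p = 0.0105, adjusted p = 0.795 from edgeR), and Trap1, the mitochondrial HSP90, had -0.11 (SE 0.11). The 8 chaperonin subunits of the TRiC complex, which folds actin and tubulin, had 0 calls in all 3 comparisons at an unadjusted p under 0.05.

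**Figure D4:**
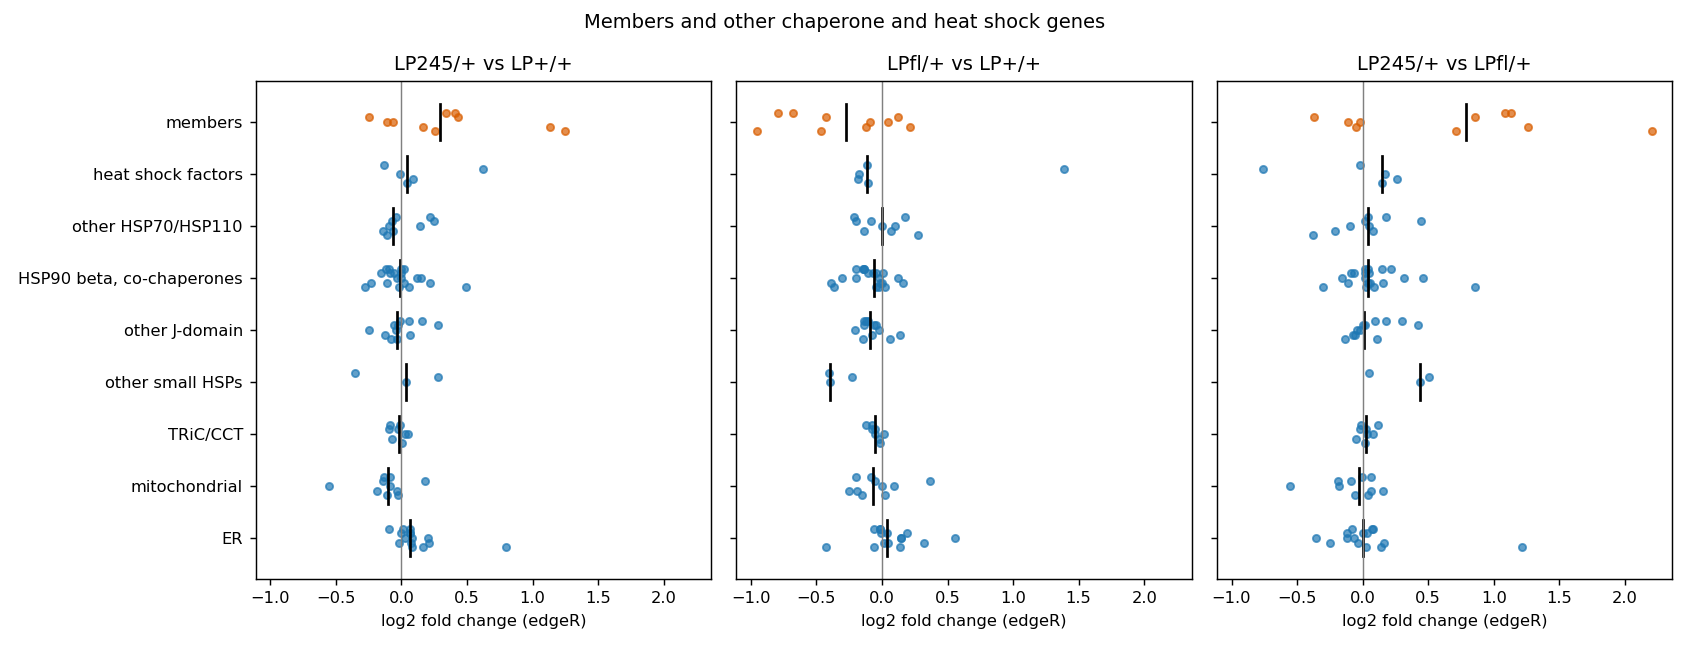
Fitted log2 fold changes (x axis) of the members (orange) and of the other chaperone lists (blue), 1 point a gene, with a black line at the median of each list, in the 3 comparisons. The median drawn for the members includes Hspa1a and is 0.30, -0.28 and 0.79 from left to right, where the comparisons with LP245/+ chose the members.

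The members did not vary as 1 group over the 8 livers. Of 45 pairs of members, those with Hspa1a included, 25 had a positive Pearson correlation of log2 CPM and 4 had r of at least 0.8. Hspa1a, with its few counts, had a positive r with Hspa1b, Dnajb1, Hspa8, Bag3 and Hsph1. It had a negative r with Hsp90aa1, Hspd1, Hspe1 and Hspb1. The 4 pairs with r of at least 0.8 were Hspa1b with Bag3 (0.88) and with Dnajb1 (0.87), and Hsph1 with Bag3 (0.83) and with Hspa8 (0.81). The 4 pairs under -0.5 all held Hspb1, with Dnajb1 (-0.83), Hspa1b (-0.73), Bag3 (-0.70) and Hsph1 (-0.63). These values describe 8 livers that share genotype and library series, and are given without a test. Each of the 10 members, Hspa1a with its few counts included, was scaled to its mean and SD over the livers, and these values were averaged. This average was lowest in LPfl/+ replicate 1 (-0.83) and highest in LP245/+ replicate 3 (0.82). LP+/+ replicate 2 (0.33) was as high as LP245/+ replicate 2 (0.33). Hspa1a weighs as much in the average as any other member. It passed the filter through LP245/+ livers alone, and Hspa1b in LP245/+ livers was the reason for the list. Nothing is therefore read from the order of genotypes in the average, and correlations of other genes with it are descriptions.

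Of 11627 genes with a mean normalized count of at least 50, those whose log2 values followed this average most closely over the 8 livers were Npr3 (Pearson's r = 0.99, Spearman's rho = 1), Taf8 (0.96 and 1), Rab1a, Arf1, Top1, Chordc1, Btnl9, Timp3, Zmynd19 and Fam174b. The lowest of these 10 had r = 0.93. Without the 2 livers farthest from the median of the average, r was 0.97 for Npr3 and 0.78 for Chordc1, the 1 gene of the chaperone lists among them. The genes that ran most against the average were Hsd3b2 (r = -0.98), Gm26601, Dph7, Rsph3b and Setd5 (r = -0.94). Hsf1 had r = 0.11 and Hsf2 r = 0.73 with it.

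Genes of the circadian clock were read beside Hspa1b in the same livers. In the liver, body temperature and feeding rhythms are known to drive heat shock genes in a daily cycle, and the time of day of collection is not given in the sources used here. Dbp, an output gene of the clock, had 0.815, 7.75 and 3.57 CPM in LP+/+ livers, 2.29 and 1.82 in LPfl/+ livers and 23.7, 9.48 and 18.6 in LP245/+ livers. Nr1d1, which encodes the repressor REV-ERB alpha, had 5.20, 31.6 and 25.4, then 16.3 and 10.5, then 62.7, 41.1 and 36.0. Arntl, which encodes the activator BMAL1, had 37.7, 18.9 and 23.2, then 26.8 and 29.4, then 8.37, 17.7 and 12.5. Dbp and Nr1d1 were highest and Arntl lowest in the LP245/+ livers, without overlap.

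Of 14 listed clock genes, 7 were higher (Per2, Per3, Nr1d1, Nr1d2, Dbp, Tef and Bhlhe41) and 3 lower (Arntl, Npas2 and Cry1) in LP245/+ than in LP+/+ at an unadjusted p under 0.05, where 3.55% and 2.38% of all genes were, and none passed the adjustment (smallest adjusted p = 0.795 from edgeR). Clock, Per1, Cry2 and Ciart were not called. The log2 fold changes were 2.09 for Dbp (SE 0.59), 0.54 for Per2 (SE 0.14), -1.05 for Arntl (SE 0.29) and -0.85 for Cry1 (SE 0.18). In LPfl/+ against LP+/+ 0 of the 14 were called at an unadjusted p under 0.05 from edgeR. Of all genes, 4.22% were higher and 2.67% lower. The log2 fold changes of the 14 ran from -0.98 to 0.50, with a median of -0.10, beside -0.95 for Hspa1b. The list mixes genes that were higher and genes that were lower in LP245/+, so the median does not show how far single genes moved. In LP245/+ against LPfl/+ 7 were higher and 3 lower, where 4.07% and 4.44% of all genes were. Within LP+/+ livers, replicate 1 had the lowest Dbp, Nr1d1 and Hspa1b, and it is also the 1 control of the second library series. The part of the clock genes and of the library series in the level of Hspa1b was not tested.

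**Figure D5:**
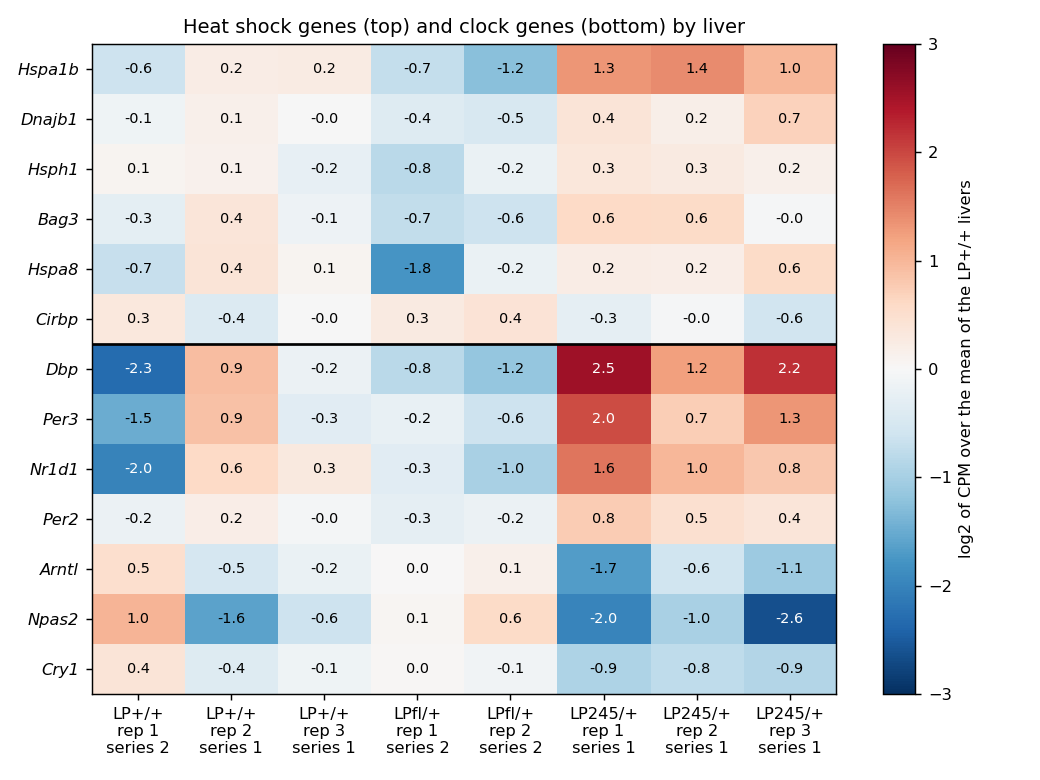
Heat map of log2 of each liver's CPM over the mean of the 3 LP+/+ livers, with the value in each cell, for 6 heat shock and cold-inducible genes above the line and 7 clock genes under it, by liver with its library series. Hspa1b, Dbp, Per2 and Nr1d1 are highest and Arntl and Cry1 lowest in the LP245/+ livers, and LP+/+ replicate 1 is the lowest liver for Dbp, Per3 and Nr1d1.

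Genes that respond to temperature in the other direction were also read. Cirbp, a cold-inducible RNA-binding protein gene, had 9.61, 5.76 and 7.64 CPM in LP+/+ livers, 9.24 and 10.2 in LPfl/+ livers and 6.39, 7.43 and 5.15 in LP245/+ livers. It was lower in LP245/+ than in LPfl/+ by a log2 fold change of -0.62 (SE 0.23, unadjusted p = 0.0206, adjusted p = 0.506 from edgeR), and overlapped between LP245/+ and LP+/+. Over the 8 livers its Pearson's r with the members' average was -0.81 (Spearman's rho = -0.88), and -0.75 without the 2 livers farthest from the median. These values are descriptions, because the average holds the Hspa1b values that chose the list. Rbm3, the related cold-inducible gene, was higher in LPfl/+ than in LP+/+ by 0.30 (SE 0.12, unadjusted p = 0.0322, adjusted p = 0.704 from edgeR). Unlike Cirbp, Rbm3 had Pearson's r = 0.25 with the members' average (Spearman's rho = 0.05). Its LP245/+ livers, at 14.9 to 16.9 CPM, lay above all LP+/+ livers, at 12.3 to 14.6 CPM, where 6.47% of all genes did so. Of 10 immediate early genes, which respond to handling and tissue damage within minutes, 9 passed the filter and 0 were called in any of the 3 comparisons at an unadjusted p under 0.05 from edgeR.

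Markers of other cell types were compared in the same livers. Summed hepatocyte markers (8 genes) ran from 105616 to 153193 CPM in LP+/+, 105052 to 113314 in LPfl/+ and 109004 to 127414 in LP245/+ livers. Macrophage markers (7 genes) ran from 299 to 363, 294 to 408 and 261 to 314, endothelial markers (5 genes) from 306 to 402, 249.8 to 339 and 358 to 386, and stellate cell markers (6 genes) from 506 to 557, 431 to 529.7 and 522 to 545. Of these lists, 0 genes were called in LP245/+ against LP+/+ or in LPfl/+ against LP+/+ at an unadjusted p under 0.05 from edgeR. In LP245/+ against LPfl/+, Hnf4a and the stellate gene Reln were higher, the macrophage gene Cd68 was lower and Cnn1, a smooth muscle gene at under 0.6 CPM, was higher, each with an adjusted p of at least 0.509. Their part in the level of the members was not tested.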

How the data were processed

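Livers of 3 LP+/+, 2 LPfl/+ and 3 LP245/+ males were analysed. The authors deposited raw read counts per gene for 49585 genes, made from stranded total RNA libraries by alignment of 76-base paired-end reads to GRCm38, for which STAR both aligned and counted, over GENCODE genes. The release and the strand counted are not given in the sources used here, so counts of overlapping genes such as Hspd1 and Hspe1 are uncertain. The depth of 26304526 to 31370714 counts per liver sets the precision of low genes such as Hspa1a. All libraries differed beyond sampling noise (lowest chi-square per gene between any 2 of them, 19.9). Symbols, positions and exon lengths were taken from GENCODE M21, which left 259 identifiers without a symbol, and promoters from RefSeq for GRCm38.p6.

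Counts were fitted with edgeR 4.0.16 under R 4.3.3 (quasi-likelihood test, TMM normalization, filterByExpr by genotype, all 8 livers in 1 fit without covariates), with Benjamini-Hochberg adjustment over 16496 genes. The cutoff was a log2 fold change of 1 or more in either direction with an adjusted p not above 0.05, and an unadjusted p under 0.05 was counted as well. P-values measure the spread between these livers. CPM values are TMM-scaled, and correlations use log2 CPM with a prior count of 2. The scripts were tested on simulated counts. Named genes were the members, fixed genes of each list, up to 3 genes per list and comparison with the smallest unadjusted p under 0.05, and the 10 highest and 5 lowest by correlation; other genes were named after their values were seen. The result of 1 further list is not reported here. The members and all lists were chosen with earlier results of these data known. Alternatives were DESeq2 1.42.0, RLE size factors, no filter, a minimum of 10 counts per liver, only the 2 genotypes compared, the replicate number as a block, the library series as a covariate, leaving out every liver in turn, and the longest transcript in place of exon length. Figures were drawn with Python 3.11.15 and matplotlib 3.10.9.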

Additional observations from a re-analysis of the deposited data

Results flagged for a closer look

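Hspa1b was flagged because every LP245/+ liver lay above and every LPfl/+ liver below all LP+/+ livers. The difference between the 2 effects, 2.21 on the log2 scale, is the comparison of LP245/+ with LPfl/+, which share no library series. Dnajb1 had the same arrangement of livers, with a difference of 0.86. With the library series as a covariate these differences were 1.36 and 0.65. For both genes the difference was not tested, because Hspa1b in LP245/+ livers was the reason for the list. Both sides of the arrangement rest on the same LP+/+ livers, and the share of all genes with this arrangement was not counted.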

How the results depend on the processing

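The number of members lower in LPfl/+ at an unadjusted p under 0.05 was 1 with the library series as a covariate and between 2 and 4 with a liver left out, against 4. Under all alternatives run, 0 members passed the cutoff in that comparison. Its sign turned for Hspa1a with the series (1.94), for Hspe1 with the series (-0.032), and for Hsp90aa1 without LP+/+ replicate 3 (-0.046) and without LPfl/+ replicate 2 (-0.26), in a range of -0.26 to 0.28 with a liver left out. For all genes, the calls at the cutoff in LP245/+ against LP+/+, LPfl/+ against LP+/+ and LP245/+ against LPfl/+ were 10, 9 and 56 with DESeq2, 20, 14 and 122 without the filter and 3, 3 and 10 with the series. With only the 2 genotypes, 51 were called in the last. With a liver left out the ranges were 0 to 5, 0 to 59 and 0 to 47. At an unadjusted p under 0.05, leaving out a liver gave 361 to 694 higher genes in the first comparison, 434 to 1122 higher and 270 to 781 lower in the second, and 479 to 1057 higher in the third. Without the filter 629 and 664 genes were lower in the first 2, and with the series 425 were higher and 445 lower in the third. For the 85 other chaperone genes, unadjusted calls in the first comparison were 3 higher without the filter, 0 higher and 2 lower with the series, and 0 to 2 higher and 1 to 4 lower with a liver left out. In the second they were 2 higher and 3 lower without the filter, 2 lower with DESeq2 and with only the 2 genotypes, and 0 to 6 higher and 0 to 8 lower with a liver left out. In the third they were 2 lower without the filter, 0 higher with the series, and 1 to 9 higher and 0 to 5 lower with a liver left out, and 1 passed the cutoff without the filter. The cause of these shifts was not tested. Of the single values under alternatives, 397 kept their sign and side of the threshold or moved within 1 SD, 21 moved further, 12 lost and 4 gained an unadjusted p under 0.05, and 5 changed sign in the tested comparison of LPfl/+ with LP+/+. In the untested comparisons with LP245/+ livers the sign turned for 4 values against LP+/+ and 9 against LPfl/+, of Hsp90aa1, Hspd1, Hspe1 and Hspa1a. The widest shift was that of Hspa1a against LPfl/+, -1.27 with the series in place of 1.26. With only 2 genotypes, with at least 10 counts in every liver and without LP245/+ replicate 2 or 3 or any LP+/+ liver, Hspa1a did not pass the filter and has no value.

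Deviations from the genotype mean had r between -0.08 and 0.03 for same-numbered livers of different genotypes. With so few livers these deviations are tied to each other within a genotype, so r cannot decide whether the numbers pair livers. With the replicate number as a block, 0 genes passed the cutoff in LP245/+ against LP+/+, 4 members were lower in LPfl/+, and 2 other chaperone genes were higher and 2 lower in LPfl/+ against LP+/+ and 2 lower in LP245/+ against LPfl/+. Under the block Hspa1a had a log2 fold change of 0.14 in LPfl/+, Dnajb1 -0.37 (unadjusted p = 0.0556 from edgeR) and Hspa8 -0.80 (unadjusted p = 0.0322 from edgeR). With 2 LPfl/+ livers, and at most 11 counts of Hspa1a in any liver, small differences were not detectable at this depth and number.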
